A study of Mus musculus with 8 samples.

Results

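Mineralization of bone matrix depends on the balance between inorganic phosphate, which combines with calcium to form hydroxyapatite, and inorganic pyrophosphate, which blocks crystal growth. Osteoblasts set this balance with membrane and vesicle phosphatases (Alpl, Phospho1), an enzyme that makes pyrophosphate (Enpp1), a protein that releases pyrophosphate and ATP from the cell (Ank), carriers that move phosphate in (Slc20a1, Slc20a2) and out (Xpr1), a sphingomyelinase (Smpd3) and a matrix inhibitor of calcification (Mgp). These 9 genes were chosen by symbol for their roles. Measured values were no part of the rule, but earlier results of these data were known when the genes were chosen. They were examined in calvarial osteoblast cultures treated with parathyroid hormone (PTH) or vehicle. All 9 of the 9 symbols were present among the 47706 genes listed, each as a single entry, and all passed the filter on low counts that left 16736 genes. The lowest count of any of the 9 in any culture was 223, for Enpp1.

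The cultures were primary osteoblasts isolated from the skullcap of neonatal mice 1 to 3 days old and differentiated for 7 days. The medium contained 10 mM β-glycerol phosphate, a phosphate donor that alkaline phosphatase can cleave, and cultures were serum-starved in 0.1% FBS for 6 hours before 100 μM PTH was applied for 24 hours. These conditions are taken from the methods of the study. The sample labels name adipogenic rather than osteogenic differentiation, and the controls shared every step but the hormone as far as the sources state. Neither source used here gives a strain, sex or number of donor litters for these cultures, so p-values measure the spread between cultures that may share a preparation. Each treatment had 4 cultures. Library totals ranged from 33605610 to 56090654 counts.

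The cultures expressed the listed osteoblast markers. All 10 listed osteoblast markers were tested, and their summed level lay between 92247 and 104288 CPM (counts per 1000000 counts of the normalized library) with vehicle and between 86199 and 124500 CPM with PTH. Col1a1, Col1a2 and Sparc made up most of that sum, so it says little about the less abundant markers. Sp7 ranged from 74.8 to 142 CPM with vehicle and from 25.9 to 33.9 CPM with PTH. Among the 10 markers, Runx2, Sp7 and Pth1r fell and none rose. The 8 adipocyte markers summed to between 39.8 and 55.5 CPM with vehicle and between 34.8 and 54.9 CPM with PTH, and 1 of 7 tested (Pparg) fell. Chondrocyte markers, which matter here because chondrocytes also express Alpl and Mgp, summed to between 363 and 395 CPM with vehicle and between 423 and 549 CPM with PTH, and 2 of 7 tested (Acan and Col2a1) rose. The 10 macrophage markers summed to between 1033 and 1683 CPM with vehicle and between 1614 and 2063 CPM with PTH. Of these, Lyz2 and Cd14 rose with all cultures included, and all 10 rose when vehicle replicate 4 was left out. Endothelial markers summed to at most 10.8 CPM, with Emcn at 0, and the osteoclast marker Dcstamp was at 0, while osteoclast markers as a whole summed to between 408 and 585 CPM over both treatments, most of it Ctsk. Of 5 tested smooth muscle markers, 1 rose and 2 fell. The part these other cells may play in the results below was not tested, and in bulk RNA fewer cells of a type cannot be told apart from less RNA per cell.

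PTH changed 5 of the 9 genes and did so in opposite directions. Mgp, Slc20a1 and Xpr1 rose, by 2.64-fold, 2.20-fold and 1.45-fold, and Phospho1 and Smpd3 fell, to levels 4.35-fold and 3.97-fold below vehicle. Alpl, Enpp1, Ank and Slc20a2 did not pass the test. Calls rest on quasi-likelihood tests in edgeR, adjusted by Benjamini-Hochberg over the whole table, and 45.8% of all genes passed (23.3% higher and 22.5% lower), so the number of members called was close to what the whole table showed. Of the 9, 4 passed the test with a change of at least 1 on the log2 scale, as did 11.2% of all genes tested. The median absolute log2 fold change was 0.53 for the members and 0.35 over all genes. The same 5 genes were those in which the lowest culture of one treatment lay above the highest of the other, which held for 43.0% of all genes (21.2% with PTH above vehicle and 21.8% with PTH below).

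**Figure D1:**
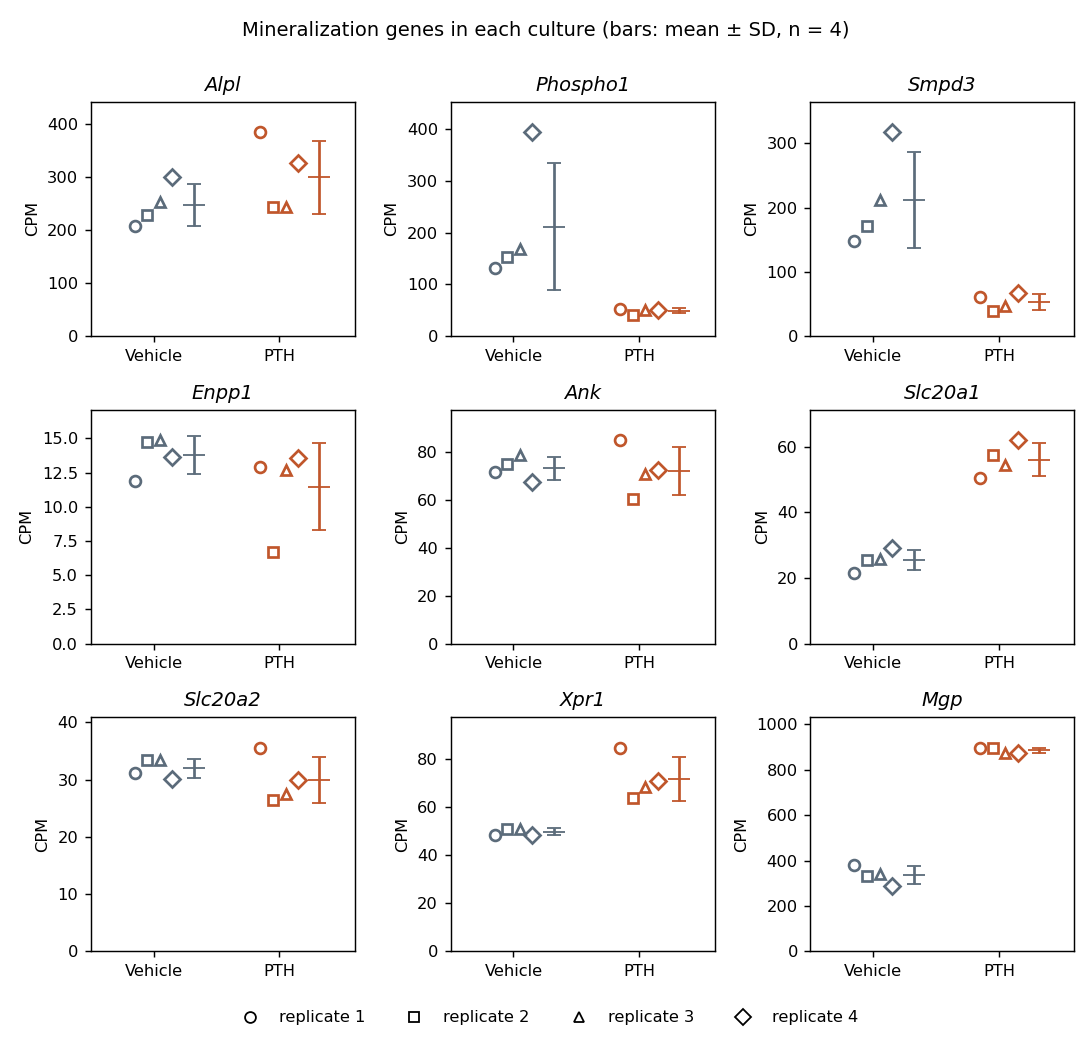
CPM of the 9 mineralization genes in each culture (vertical axis, linear from 0), with vehicle in grey and PTH in orange, 1 symbol per replicate, and bars for the mean ± SD of 4 cultures. The treatments do not overlap for Phospho1, Smpd3, Slc20a1, Xpr1 and Mgp, and vehicle replicate 4 stands at 394 CPM for Phospho1.

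Promoter sequence from RefSeq (GRCm38.p6) was matched for 6 of the 9 genes, in 8 windows because Alpl and Slc20a1 each had a pair of annotated starts. No entry was given for Mgp, Smpd3 or Slc20a2. PTH raises cAMP in osteoblasts, which activates factors that bind the cAMP response element (CRE), and RUNX2 is the master regulator of the osteoblast lineage. The 250 bases upstream of each RefSeq start were searched on both strands for the full CRE (TGACGTCA), for its shorter core (TGACG or CGTCA, which also lie within the full site) and for a RUNX site (TGTGGT or ACCACA). Phospho1 is shown as the member with the largest decrease, and Slc20a1 and Xpr1, chosen after their values were seen, as the phosphate transporters that rose. Each sequence runs 5′ to 3′ on the gene's strand and stops where the first annotated transcript begins, which for Phospho1 and Slc20a1 lies a few bases before the RefSeq start. The Phospho1 window lies within the annotated bounds of Zfp652. Capitals mark CRE cores and RUNX sites.
Phospho1, chr11:95824250-95824498, plus strand: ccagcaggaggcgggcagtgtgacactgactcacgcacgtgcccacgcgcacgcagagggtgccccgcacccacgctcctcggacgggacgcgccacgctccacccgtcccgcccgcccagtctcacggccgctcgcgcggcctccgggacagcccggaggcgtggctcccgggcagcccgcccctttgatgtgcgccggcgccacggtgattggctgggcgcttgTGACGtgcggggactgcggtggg
Slc20a1, chr2:129198523-129198763, plus strand: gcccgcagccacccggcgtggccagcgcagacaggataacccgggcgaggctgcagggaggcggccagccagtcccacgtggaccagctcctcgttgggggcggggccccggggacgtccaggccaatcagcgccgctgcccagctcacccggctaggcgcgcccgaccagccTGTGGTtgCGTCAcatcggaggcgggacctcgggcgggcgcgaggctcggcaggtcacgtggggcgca
Xpr1, chr1:155417445-155417694, minus strand: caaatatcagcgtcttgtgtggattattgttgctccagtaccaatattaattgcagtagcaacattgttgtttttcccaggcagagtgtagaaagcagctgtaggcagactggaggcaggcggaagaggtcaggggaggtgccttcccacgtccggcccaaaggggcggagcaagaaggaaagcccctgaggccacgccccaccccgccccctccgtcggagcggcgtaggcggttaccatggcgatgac
A CRE core was present in 5 of the 8 windows (both Slc20a1 starts, Phospho1, Enpp1 and the inner Alpl start), where 17.8% of 32851 promoter windows hold one. Counted back from the RefSeq start, it lay 24 to 20 bases before it in Phospho1, and in Slc20a1 69 to 65 bases before it at the outer start, next to a RUNX site at 77 to 72 bases. RUNX sites were found in 2 of the 8 windows (Slc20a1 and Enpp1), against 14.0% of all windows, and the full CRE, held by 1.55% of all windows, was in 0 of the 8. CRE cores thus occurred upstream of a gene that rose, a gene that fell and genes that did not pass the test. A match is a description of letters in these windows and does not show that a factor binds there.

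Alpl encodes tissue-nonspecific alkaline phosphatase, the membrane enzyme that hydrolyzes pyrophosphate and frees phosphate, and is the classical histochemical marker of osteoblast differentiation. It lies on chromosome 4 from 137741733 to 137796384 (GENCODE M21 annotation of GRCm38). The vehicle cultures had 207, 228, 252 and 299 CPM in replicates 1 to 4, and the PTH cultures had 384, 242, 243 and 326 CPM. PTH replicate 1 was the highest and the other cultures of both treatments overlapped. The means were 246 ± 39.6 CPM with vehicle and 299 ± 68.8 CPM with PTH (SD, n = 4 each). The log2 fold change was 0.28 with a 95% interval from -0.06 to 0.61 (adjusted p = 0.160), so neither no change nor a rise of up to 0.61 on the log2 scale lay outside the interval. An exact permutation test over the 70 assignments gave a two-sided p of 0.229.

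Phospho1 encodes a cytosolic phosphatase that releases phosphate from phosphocholine and phosphoethanolamine inside matrix vesicles, and together with Alpl it starts mineral formation. It lies on chromosome 11 from 95824499 to 95832140. Replicates 1 to 4 had 131, 153, 169 and 394 CPM with vehicle and 53.0, 41.2, 49.9 and 50.4 CPM with PTH. Vehicle replicate 4 stood far above the rest, while the PTH cultures lay close together and below every vehicle culture. Phospho1 fell by 2.12 on the log2 scale (SE 0.293, adjusted p = 9.57e-05), and 0.412% of the genes tested had a lower log2 fold change. Without vehicle replicate 4 it was 3.11-fold lower with PTH in place of 4.35-fold (log2 fold change -1.63, adjusted p = 5.54e-07).

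The Phospho1 count has a limit of annotation. Of its 2029 exon bases, 1818 (89.6%) also belong to exons of Zfp652, a zinc finger gene on the same strand that the authors' assembly placed in the same locus, and 1708 (84.2%) to exons of Abi3 on the opposite strand. The sources used here do not state whether counting used strand, so reads of these genes may have been split between them. Both neighbours were also lower with PTH: Zfp652 ranged from 125 to 157 CPM in vehicle cultures and from 76.9 to 93.7 CPM in PTH cultures (log2 fold change -0.71, adjusted p = 7.30e-05), and Abi3 from 14.7 to 43.4 CPM in vehicle and from 2.71 to 4.63 CPM in PTH cultures (log2 fold change -2.94, adjusted p = 6.86e-06). Vehicle replicate 4, the highest for Phospho1, was not the highest for either of them. No comparable overlap affected the other members, of which Alpl, Enpp1, Xpr1 and Mgp shared no exon base with another gene, while Ank, Slc20a1, Slc20a2 and Smpd3 shared between 1.53% and 8.10% with any 1 gene.

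Smpd3 encodes neutral sphingomyelinase 2, which cleaves sphingomyelin to ceramide and phosphocholine, the latter a substrate for Phospho1, and its loss in mice impairs bone mineralization. The gene is on chromosome 8 from 106252548 to 106337988. With vehicle, 147, 171, 212 and 317 CPM were measured in replicates 1 to 4, and with PTH 60.5, 38.9, 47.2 and 66.7 CPM. Every PTH culture was below every vehicle culture, and vehicle replicate 4 was again the highest. The means were 212 ± 74.95 and 53.3 ± 12.6 CPM, and Smpd3 fell by 1.99 on the log2 scale (SE 0.228, adjusted p = 2.12e-05). Leaving out vehicle replicate 4 gave a log2 fold change of -1.73 (adjusted p = 1.79e-05).

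**Figure D2:**
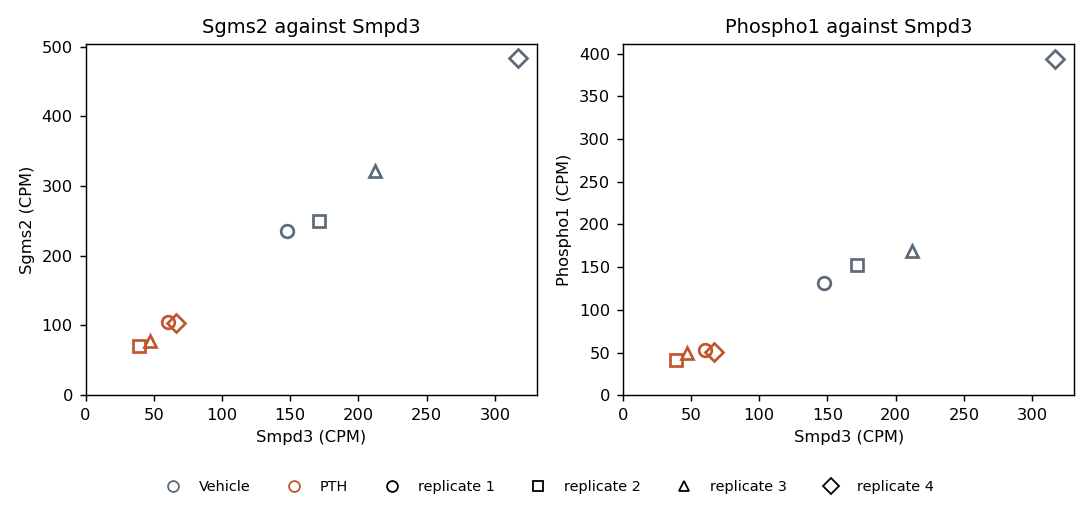
CPM of Sgms2 (left) and Phospho1 (right) against CPM of Smpd3 in the 8 cultures, both axes linear from 0, with vehicle in grey, PTH in orange and 1 symbol per replicate. The 4 PTH cultures lie together at the lower left (38.9 to 66.7 CPM of Smpd3), the vehicle cultures are spread along a rising line, and vehicle replicate 4 is at the upper right of both panels.

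Among all tested genes outside the 9, the one whose log2 CPM followed Smpd3 most closely over the 8 cultures was Sgms2 (Pearson's r = 0.998), which encodes sphingomyelin synthase 2, the enzyme that makes the lipid Smpd3 cleaves. The genes most like Phospho1 were Mki67 and Tbx2 (r = 0.988 for both), and those most like Mgp were Btg2 and Ret (both 0.997). Slc20a1 was followed by Pfkfb4 (0.996) and Mef2d (0.994), and Xpr1 by Serinc5 (0.997) and Galnt11 (0.996). For members that did not pass the test, the closest genes were Gprc5c and Wif1 for Alpl (0.991 and 0.988), Zbtb8a and Cyp4f14 for Enpp1 (0.973 and 0.972), Casc4 and Cdc27 for Ank (0.964 and 0.962) and Heatr3 and Ube2h for Slc20a2 (0.980 and 0.972). These correlations describe 8 cultures that fall into 2 treatments, and for a member that differed between treatments a shared direction of change alone raises r. Smpd3 (147 to 317 CPM) and Phospho1 (131 to 394 CPM) also varied widely among the vehicle cultures, and r with them reflects that spread too. How much each part adds to r was not tested.

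Enpp1 encodes the ectonucleotide pyrophosphatase that generates extracellular pyrophosphate from ATP, and its loss causes ectopic calcification. The gene, on chromosome 10 from 24637914 to 24712159, was the least abundant of the 9. Vehicle replicates 1 to 4 had 11.9, 14.7, 14.9 and 13.6 CPM and PTH replicates 12.9, 6.71, 12.7 and 13.6 CPM. PTH replicate 2 lay apart at 6.71 CPM, and the other 3 PTH cultures were within the vehicle range. The log2 fold change was -0.26 with an interval from -0.66 to 0.14 (adjusted p = 0.273). It was -0.07 without PTH replicate 2 (adjusted p = 0.631).

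Ank, on chromosome 15 from 27466677 to 27594909, encodes the multipass membrane protein through which cells release pyrophosphate and ATP. Its levels were 71.6, 75.01, 79.1 and 67.5 CPM with vehicle and 85.1, 60.5, 70.7 and 72.6 CPM with PTH, in replicates 1 to 4. The PTH cultures reached both above and below the vehicle range. The log2 fold change of Ank was -0.02, the smallest of the 9 in size, and its 95% interval ran from -0.23 to 0.19 (adjusted p = 0.881).

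The 2 sodium-phosphate cotransporters of the SLC20 family behaved differently. Slc20a1 encodes PiT-1 on chromosome 2 from 129198764 to 129211616, and its replicates 1 to 4 had 21.6, 25.6, 25.8 and 29.1 CPM with vehicle and 50.4, 57.5, 54.3 and 62.0 CPM with PTH. The lowest PTH culture was well above the highest vehicle culture. The means were 25.5 ± 3.07 and 56.1 ± 4.92 CPM (log2 fold change 1.14, SE 0.0964, adjusted p = 1.45e-06).

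Slc20a2 encodes PiT-2 on chromosome 8 from 22476788 to 22569612, and mutations of the human gene cause brain calcification. It had 31.2, 33.4, 33.4 and 30.1 CPM with vehicle and 35.6, 26.5, 27.5 and 30.0 CPM with PTH, in replicates 1 to 4, and the treatments overlapped. The log2 fold change of Slc20a2 was -0.10 with an interval from -0.30 to 0.11 (adjusted p = 0.431), which does not reach the change of Slc20a1. The difference between the genes was tested within cultures. The ratio of Slc20a1 to Slc20a2 CPM lay between 0.693 and 0.967 with vehicle and between 1.42 and 2.17 with PTH. This was a 2.37-fold rise of the ratio (exact permutation test, two-sided p = 0.0286, the smallest that 4 against 4 allow). After Benjamini-Hochberg adjustment over all ratios examined, the exact permutation p was 0.0714.

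Xpr1 encodes the phosphate exporter of the plasma membrane, on chromosome 1 from 155275701 to 155417415. The vehicle cultures were close together at 48.5, 51.1, 51.1 and 48.6 CPM in replicates 1 to 4, and the PTH cultures had 84.9, 63.7, 68.3 and 70.9 CPM. All PTH cultures were higher, and PTH replicate 1 was the highest. The log2 fold change was 0.53 (SE 0.0847, adjusted p = 2.95e-04). The ratio of the importer Slc20a1 to Xpr1 had a mean log2 of -0.97 ± 0.175 with vehicle and -0.35 ± 0.275 with PTH, and PTH replicate 1 fell just inside the vehicle range (exact permutation test, two-sided p = 0.0571).

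Mgp encodes matrix Gla protein, a small secreted protein carrying vitamin K-dependent γ-carboxyglutamate residues, and mice without it calcify their arteries and cartilage. It lies on chromosome 6 from 136872435 to 136875823. The 4 vehicle replicates had 382, 333, 341 and 286 CPM and the 4 PTH replicates 898, 894, 873 and 876 CPM. The PTH cultures were almost equal, with a coefficient of variation of 1.39%, against 11.7% in the vehicle cultures. Mgp rose by 1.40 on the log2 scale (SE 0.0871, adjusted p = 8.84e-08). The calcification inhibitor was thus the member with the largest rise in the main fit. With an offset for transcript length its log2 fold change was 1.07, against 1.11 for Slc20a1. The 2 members that fell were Phospho1, which releases phosphate inside vesicles, and Smpd3, which yields a substrate for Phospho1.

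**Figure D3:**
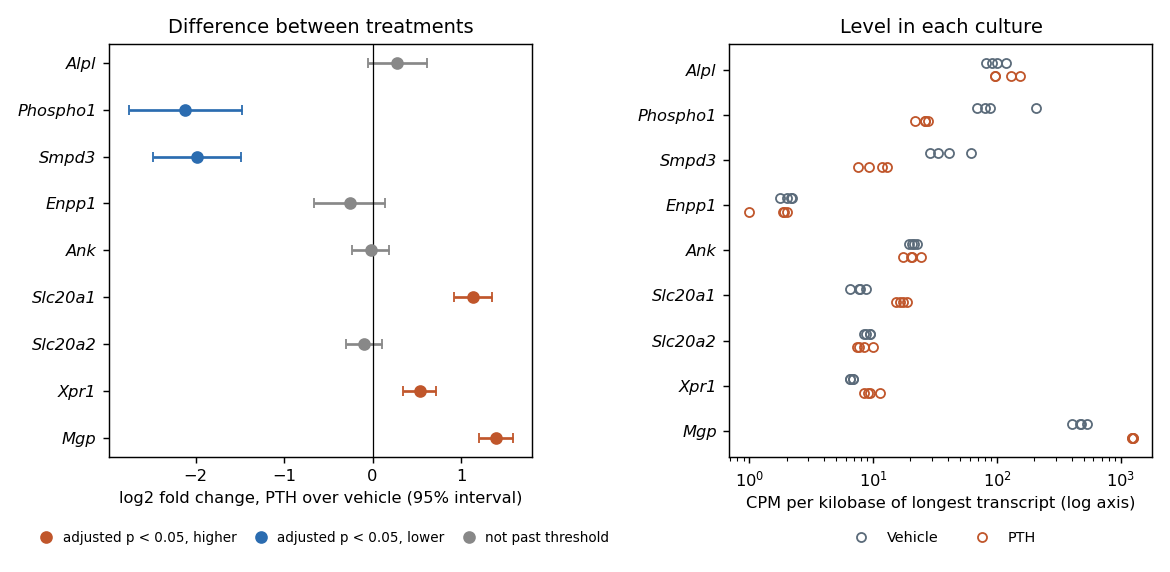
Left, log2 fold change of PTH over vehicle for each gene with its 95% interval from edgeR, in orange for genes that rose, blue for genes that fell and grey for genes not past the threshold. Right, CPM per kilobase of the longest transcript in each of the 4 vehicle (grey) and 4 PTH (orange) cultures on a log axis, on which Enpp1 lies lowest and Mgp highest with both treatments.

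Levels were compared between genes per kilobase of the longest annotated transcript. With vehicle, Mgp was highest at 469 ± 55.0 CPM per kilobase, followed by Phospho1 (111 ± 64.0) and Alpl (97.7 ± 15.7), whose ranges overlapped. Phospho1 was above Alpl in vehicle replicate 4 alone (206 against 119), and Alpl was the higher in replicates 1 to 3. Smpd3 (41.2 ± 14.6) and Ank (20.9 ± 1.41) came next, each apart from its neighbours. Slc20a2 (8.97 ± 0.464), Slc20a1 (7.69 ± 0.925) and Xpr1 (6.65 ± 0.196) overlapped in turn, and Enpp1 was lowest at 2.03 ± 0.201 CPM per kilobase. With PTH the order was Mgp (1238 ± 17.2), Alpl (118 ± 27.3), Phospho1 (25.5 ± 2.68), Ank (20.6 ± 2.88), Slc20a1 (16.9 ± 1.48), Smpd3 (10.4 ± 2.44), Xpr1 (9.60 ± 1.22), Slc20a2 (8.38 ± 1.14) and Enpp1 (1.69 ± 0.472). Phospho1 thus overlapped with Alpl in the vehicle cultures and with Ank in the PTH cultures. With PTH the ranges of Ank and Slc20a1, of Smpd3 and Xpr1 and of Xpr1 and Slc20a2 overlapped too. Divided by the summed exon length in place of the longest transcript, the vehicle levels of Alpl, Enpp1, Slc20a1, Slc20a2, Xpr1 and Mgp were lower by more than their SD (61.1 for Alpl and 2.78 CPM per kilobase for Xpr1), and the vehicle order of the 9 was unaltered. In the PTH cultures Smpd3 (10.19) then came before Slc20a1 (10.05) and Slc20a2 (4.81) before Xpr1 (4.02 CPM per kilobase).

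Within cultures, the Phospho1 to Alpl ratio showed the clearest shift of the pairs examined. It was 0.633, 0.672, 0.671 and 1.32 in vehicle replicates 1 to 4 and between 0.138 and 0.205 with PTH, 4.73-fold lower (exact permutation test, two-sided p = 0.0286). The level of Alpl relative to the pyrophosphate-generating Enpp1 lay between 15.4 and 21.8 with vehicle and between 19.1 and 35.6 with PTH. This difference of 0.57 on the log2 scale did not pass the threshold (exact permutation test, two-sided p = 0.0571), and the ranges of the treatments overlapped. For Alpl relative to Ank the log2 difference was 0.29 (exact permutation test, two-sided p = 0.114), with 2.88 to 4.42 in the vehicle and 3.44 to 4.51 in the PTH cultures. Of the 5 ratios, 2 reached the smallest p the design allows, and after Benjamini-Hochberg adjustment over the 5 the exact permutation p was 0.0714 for both.

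**Figure D4:**
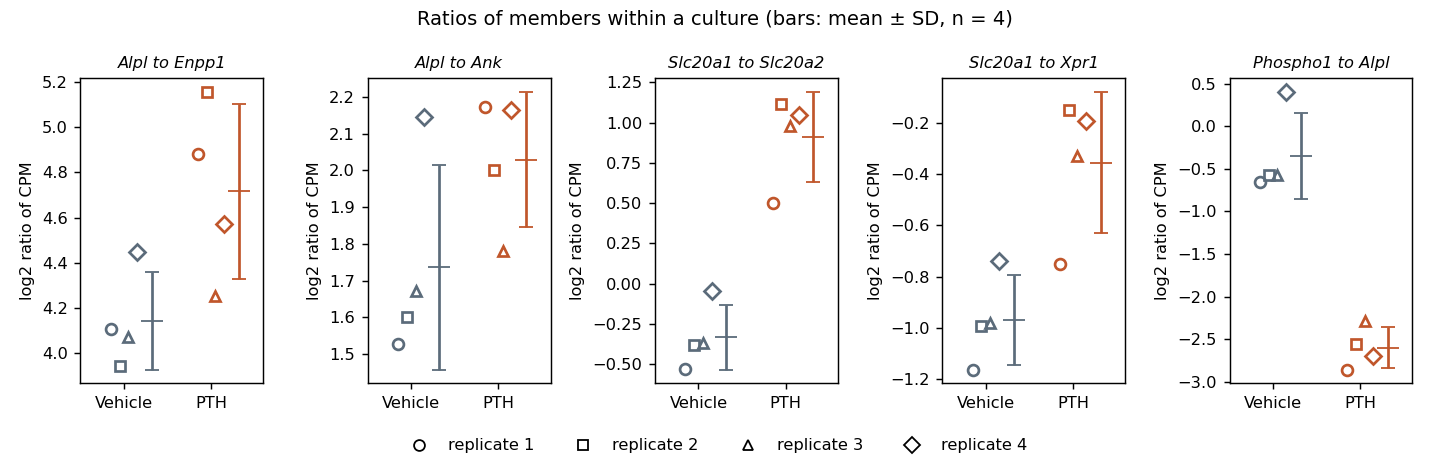
Log2 ratio of the CPM of a pair of members in each culture (vertical axis, different scale in each panel), with vehicle in grey and PTH in orange, 1 symbol per replicate and bars for the mean ± SD of 4 cultures. The treatments are separated for Slc20a1 to Slc20a2 and for Phospho1 to Alpl, and overlap for the other 3 ratios.

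Other genes of the same pathways were examined from lists written by role, with earlier results of these data known. Of 98 listed genes, 87 were tested, 13 rose (14.9%) and 26 fell (29.9%), with a median log2 fold change of -0.15, where 23.3% of all genes rose and 22.5% fell around a median of 0.00. In the sphingomyelin and phosphocholine list, 7 of 17 tested genes fell and 2 rose (median log2 fold change -0.15). Sgms2 had 236, 250, 322 and 483 CPM in vehicle replicates 1 to 4 and between 70.3 and 105 CPM with PTH, and fell by 1.85 on the log2 scale (SE 0.215, adjusted p = 2.31e-05). Pcyt1b, whose product activates phosphocholine for phosphatidylcholine synthesis, fell from 11.9 ± 0.750 to 6.45 ± 0.416 CPM (adjusted p = 1.87e-05). The 2 that rose were the choline kinases, which make phosphocholine from choline. Chka rose from a mean of 12.4 ± 0.785 CPM with vehicle to 27.0 ± 8.19 CPM (log2 fold change 1.12, adjusted p = 2.92e-04), and Chkb had a log2 fold change of 0.38 (adjusted p = 0.0461) with overlapping cultures.

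Of 10 listed relatives of the phosphatases and of Enpp1, 6 were tested, and the other alkaline phosphatase genes Alpi, Akp3 and Alppl2 had at most 6 counts in any culture. Phospho2, the paralog of Phospho1, rose from a mean of 14.5 ± 0.671 CPM with vehicle to 22.8 ± 2.12 CPM (log2 fold change 0.65, adjusted p = 7.42e-05), and Enpp4 fell from a mean of 9.79 ± 1.24 CPM with vehicle to 5.40 ± 1.06 CPM (log2 fold change -0.85, adjusted p = 8.65e-04). Among other phosphate carriers, the SLC34 sodium-phosphate cotransporter genes of kidney and gut had no counts and those of the SLC17 family too few. Slc25a3, the carrier that brings phosphate into mitochondria, rose from a mean of 277 ± 7.59 CPM with vehicle to 422 ± 11.1 CPM (log2 fold change 0.60, adjusted p = 5.97e-06). Kidins220, which encodes a membrane scaffold protein, was the other gene of that list that was tested, and it fell from 141 ± 6.83 to 101 ± 1.93 CPM (adjusted p = 3.51e-05).

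In the list for extracellular nucleotides and pyrophosphate, 3 of 13 genes rose and 3 fell. Panx1, a channel that releases ATP, had the largest rise (log2 fold change 0.40, adjusted p = 0.00220), and Entpd1, which degrades extracellular ATP, had a log2 fold change of 0.32 (adjusted p = 0.0366). Nt5e, which makes adenosine from AMP, fell from a mean of 22.7 ± 2.12 CPM with vehicle to 15.6 ± 3.05 CPM (log2 fold change -0.54, adjusted p = 0.00477), and Slc29a1, an adenosine carrier, fell by 0.36 (adjusted p = 0.00263). Annexins, calcium-dependent phospholipid-binding proteins abundant in matrix vesicles, moved little: 2 of 7 rose (Anxa11 by 0.30 and Anxa2 by 0.21 on the log2 scale) and 3 fell, of which Anxa7 by 0.36 and Anxa1 by 0.34.

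Genes that equip the member proteins were examined as well. In the list of vitamin K cycle and Gla protein genes, 0 of 8 passed edgeR's test or DESeq2's, and 1 rose and 1 fell at an unadjusted p under 0.05. Ggcx, whose product carboxylates matrix Gla protein with vitamin K as cofactor, averaged 61.8 ± 3.29 CPM in vehicle and 66.0 ± 4.49 CPM in PTH cultures. Zinc carriers, some of which load zinc into alkaline phosphatase in the secretory pathway, included Slc39a14, which rose from a mean of 61.6 ± 3.24 CPM with vehicle to 169 ± 17.9 CPM (log2 fold change 1.45, adjusted p = 3.22e-08), and 3 of 6 that fell, with Slc39a13 (log2 fold change -0.62, adjusted p = 2.74e-06) and Slc30a7 (-0.40, adjusted p = 0.00451) having the largest decreases. For the GPI anchor that holds alkaline phosphatase to the membrane, 5 of 14 genes fell and 1 rose. Pigv, a mannosyltransferase of anchor synthesis, fell from a mean of 13.5 ± 1.31 CPM with vehicle to 7.02 ± 0.463 CPM (log2 fold change -0.95, adjusted p = 1.48e-05) while Pigu had -0.52 (adjusted p = 0.00394) and Piga had a log2 fold change of 0.52 (adjusted p = 0.0385).

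Among matrix proteins that bind or regulate mineral, 2 of 14 rose and 3 fell. Dmp1, an acidic phosphoprotein of osteocytes, fell from a mean of 18.1 ± 6.05 CPM with vehicle to 8.27 ± 1.40 CPM (log2 fold change -1.12, adjusted p = 8.06e-04), and Tnfrsf11b, which encodes osteoprotegerin, fell by 0.82 (adjusted p = 7.43e-06). Chad, a leucine-rich cartilage protein gene, had the other increase, from a mean of 0.516 ± 0.209 CPM with vehicle to 1.69 ± 0.491 CPM (log2 fold change 1.71, adjusted p = 0.00220). Fgf23, the bone-derived hormone that makes the kidney excrete phosphate, was singled out after its values were seen, since its mean was under 1 CPM. It had 0 counts in all 4 vehicle cultures and 34 to 86 counts in the PTH cultures, and was at least 22.6-fold higher with PTH when set against a floor of 3 counts per vehicle library (adjusted p = 9.15e-06). The mineral-nucleating Ibsp, with 1086 to 2073 CPM with vehicle and 999 to 1369 CPM with PTH, did not pass the test (log2 fold change -0.21, adjusted p = 0.382).

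**Figure D5:**
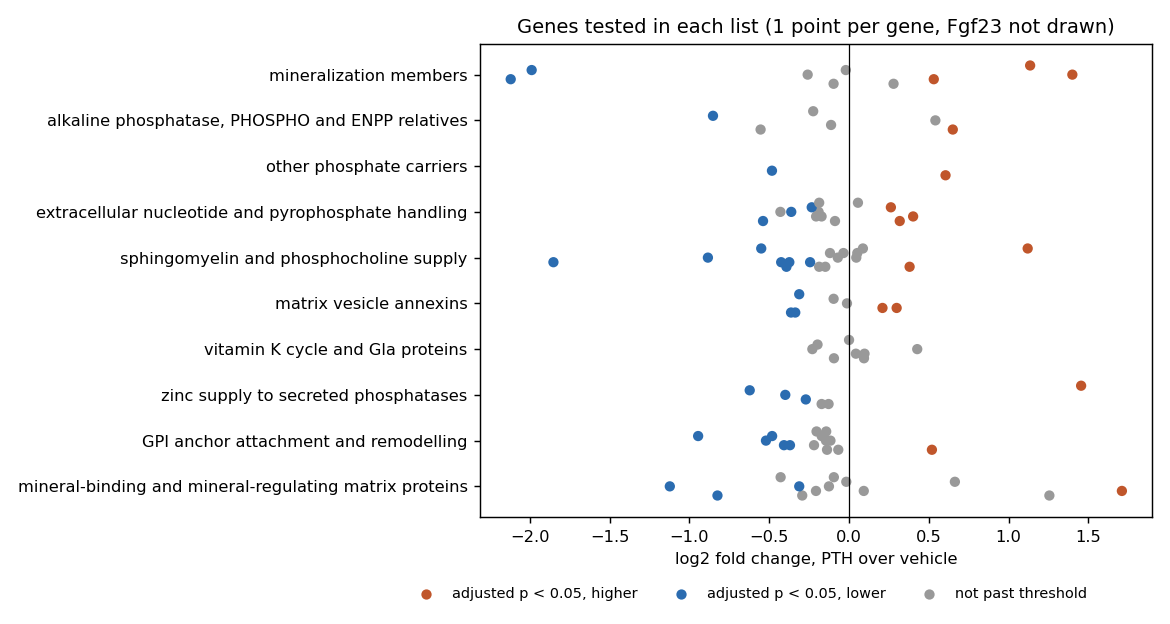
Log2 fold change of PTH over vehicle for every tested gene of the 9 members and of each list by role, 1 point per gene, orange for genes that rose, blue for genes that fell and grey for genes not past the threshold, with Fgf23 left out because its vehicle counts were 0. Smpd3 and Phospho1 lie near -2 with Sgms2, and most other genes lie within 1 of 0.

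Vehicle replicate 4 differed from the other vehicle cultures in several genes of this group. Its level was 2.57 times the median of the other 3 for Phospho1, 1.85 times for Smpd3, 1.93 times for Sgms2 and 1.31 times for Alpl, against 0.841 times for Mgp and 0.925 times for Enpp1. The osteoblast genes Ifitm5 (1.87 times), Dmp1 (1.90), Ibsp (1.78), Bglap (1.77) and Sp7 (1.64) were also higher in that culture, while Runx2 (1.10), Col1a1 (1.08), Sparc (1.07) and Col1a2 (1.06) differed little. Each of the 10 osteoblast markers and each of the 10 macrophage markers was highest there among the vehicle cultures. The osteoblast markers summed to 104288 CPM there, against 92247 to 100479 CPM in the other 3. For the macrophage markers the sum was 1683 CPM, against 1033 to 1255 CPM in the other 3. What sets this culture apart was not tested. With it left out, 3 members still rose and 2 still fell, and 3 rose and 2 fell in each of the other 7 fits that left out 1 culture. Among the lists, leaving it out gave 1 rise in place of 2 in both the sphingomyelin and phosphocholine list and the annexin list, and 2 decreases in place of 1 among the relatives of the phosphatases and Enpp1. It also gave 6 decreases in place of 7 for sphingomyelin and phosphocholine and 2 in place of 3 for extracellular nucleotides, for zinc carriers and for matrix proteins.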

How the data were processed

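Poly(A) RNA of 8 calvarial osteoblast cultures was sequenced as paired reads of 150 bases. According to the study's methods, the authors aligned reads to mm10 with HISAT2, assembled transcripts with StringTie and derived the deposited gene counts with its companion script, for which the read length setting annotation version and strand setting are not given in the sources used here. The authors tested them with DESeq2.

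The counts were used as deposited. Genes were filtered with filterByExpr (minimum count 10, minimum total 15), normalized by TMM and tested with edgeR 4.0.16 quasi-likelihood F-tests in R 4.3.3, with Benjamini-Hochberg adjustment over 16736 genes and a threshold of 0.05. The procedure was tested on simulated data. CPM used TMM library sizes. Ratios of members were compared by exact two-sided permutation tests on log2(CPM + 0.1), in which all assignments of cultures to treatments were enumerated. SciPy 1.17.1 gave the Benjamini-Hochberg adjustment of the ratio p-values and the t quantiles of the 95% intervals. The fold changes of single genes are edgeR estimates, and mean ± SD refers to CPM. Gene positions and lengths came from GENCODE M21 (GRCm38), matched for 46575 of the listed genes.

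In each pathway list, the genes named were up to 2 with the largest rise and up to 2 with the largest decrease among called genes averaging 1 CPM or more, and for each member the 2 genes of highest correlation. One gene that these choices include is not reported here. Zfp652, Abi3, Fgf23, Ibsp, the marker genes and the genes compared in vehicle replicate 4 were named after their values were seen. The members and lists were chosen with earlier results of these data known. Samples were grouped by title and treatment. Samples of the same number did not deviate together (correlations from -0.04 to 0.03), so the main design had no block.

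Alternatives were DESeq2 1.42.0, its size factors, no filter, the replicate block, each culture left out, halved counts, counts summed by symbol, length and GC offsets, library sizes without the 10 most abundant genes, a minimum log2 fold change of 1 and a pseudocount of 1 CPM.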

Additional observations from a re-analysis of the deposited data

Results flagged for a closer look

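Among 28 sets of 4 cultures examined (each member and each ratio within a treatment), 3 held a culture whose gap to its nearest neighbour, divided by the range of the set, was above Dixon's critical value at the 95% level, and chance gives about 1 in 20. Phospho1 was at 394 CPM in vehicle replicate 4, with the other vehicle cultures between 131 and 169 CPM. The log2 ratio of Phospho1 to Alpl was 0.40 in the same culture, against -0.66 to -0.57 in the other 3. Enpp1 was at 6.71 CPM in PTH replicate 2, with the other PTH cultures between 12.7 and 13.6 CPM.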

How the results depend on the processing

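Of 162 alternative values for single members, 159 kept their direction and their side of the threshold. Counts summed by symbol left the members' own counts as they were, and halved counts only rescaled them. The minimum fold change reused the main fit, so it could not change a direction. Agreement under those settings was largely fixed in advance. Ank, at -0.02 and not past the threshold, ranged from -0.11 to 0.066 without 1 culture and was positive without PTH replicate 2 (0.066) or vehicle replicate 3 (0.016), and Xpr1, at 0.53, could not pass a minimum of 1. With that minimum 1882 genes passed in place of 7669. Leaving out 1 culture gave 6671 to 8074 genes. The Slc20a1 to Xpr1 ratio differed by 0.63 on the log2 scale with the transcript length offset (exact permutation p = 0.0286) in place of 0.62 (exact permutation p = 0.0571); the cause was not tested. With the replicate block 7003 genes passed, with 3 members higher and 2 lower, and the sign-flip test of each ratio over 4 pairs gave p = 0.125, the smallest it can give (an exact test). Cultures of the same number did not deviate together, and the sources used here do not state whether they were paired. Among the pathway lists, the block gave 1 rise in place of 3 for extracellular nucleotides, 1 in place of 2 for sphingomyelin and phosphocholine and for annexins, and 0 in place of 1 for the GPI anchor, and both the block and DESeq2 gave 2 decreases in place of 1 for the relatives of the phosphatases and Enpp1. No other pathway list count moved by over 1.5 times with either. With 3 cultures against 4 the exact permutation test cannot go below 0.0571. Without 1 culture the log2 fold change ranged from -2.30 to -1.63 for Phospho1, from -2.13 to -1.73 for Smpd3, from 1.06 to 1.20 for Slc20a1, from 0.44 to 0.60 for Xpr1, from 1.33 to 1.46 for Mgp and from 0.13 to 0.38 for Alpl. The counting setting for read length and strand, and the shared exons of Phospho1, limit how exactly its level is known.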
